A study of Arabidopsis thaliana with 8 samples.

Results

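The SOC1 clade is a small branch of the MADS-box transcription factor family in Arabidopsis thaliana, and 6 of its genes were chosen by their AGI locus codes: SOC1 (AT2G45660), AGL42 (AT5G62165), AGL71 (AT5G51870), AGL72 (AT5G51860), AGL14 (AT4G11880) and AGL19 (AT4G22950). Of these 6, 5 were among the 22281 genes analysed, and AGL19 was not analysed here. Poly-A RNA was sequenced from young reproductive tissue, rich in meristems of the inflorescence and of flowers and reaching flower stage 8. The lsh1 lsh3 lsh4 mutant had 4 libraries (replicates 5 to 8) and wild type had 4 (replicates 1 to 4). Both genotypes were in the Col-0 strain and grew at 20 to 22 °C in long days (16 h of light, then 8 h of dark), and the labels name no other allele or agent. LSH1, LSH3 and LSH4 encode plant-specific nuclear proteins of the ALOG family, and the kind of mutation in each is not stated. Replicates are called independent with no word on plants or pools, so every p-value refers to variation among these libraries, part of which may be technical.

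MADS-box proteins bind DNA as dimers at CArG boxes and act in combinations. SOC1 integrates photoperiod, age, vernalization and gibberellin signals at the shoot apex, where it acts with AGL24 to turn on the floral meristem gene LFY, and it is held back by the repressors FLC and SVP. In the young flower, AP1 represses SOC1, AGL24 and SVP. AGL42, AGL71 and AGL72 promote flowering at the shoot apex and in axillary meristems, and AGL42, also named FYF, delays the abscission and senescence of floral organs. AGL14, also named XAL2, is known mainly from roots and also promotes flowering, and AGL19 promotes flowering after cold.

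The start of the MADS-domain coding region is shown for 4 members. AGL71 and AGL72 lie side by side in the genome and carried the largest differences between genotypes, so it matters whether their reads can be told apart. Each line gives 180 coding bases from the ATG that opens the MADS domain, read from the RefSeq TAIR10.1 genome and annotation, with capitals at bases that differ from AGL71. In the longest coding sequence of AGL71 this ATG lies after 30 other coding bases, and in the others shown it comes first.
AGL71: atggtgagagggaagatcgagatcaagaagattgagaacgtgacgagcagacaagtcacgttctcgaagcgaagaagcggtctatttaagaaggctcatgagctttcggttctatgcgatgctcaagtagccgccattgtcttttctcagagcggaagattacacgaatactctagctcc
AGL72: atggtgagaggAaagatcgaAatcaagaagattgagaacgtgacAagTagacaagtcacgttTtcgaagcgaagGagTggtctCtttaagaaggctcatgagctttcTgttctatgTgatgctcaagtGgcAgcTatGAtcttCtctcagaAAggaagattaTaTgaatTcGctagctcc
SOC1: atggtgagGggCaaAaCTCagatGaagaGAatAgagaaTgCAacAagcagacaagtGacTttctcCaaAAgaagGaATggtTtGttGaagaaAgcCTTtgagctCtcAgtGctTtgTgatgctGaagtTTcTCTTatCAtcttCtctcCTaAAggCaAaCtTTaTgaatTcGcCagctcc
AGL42: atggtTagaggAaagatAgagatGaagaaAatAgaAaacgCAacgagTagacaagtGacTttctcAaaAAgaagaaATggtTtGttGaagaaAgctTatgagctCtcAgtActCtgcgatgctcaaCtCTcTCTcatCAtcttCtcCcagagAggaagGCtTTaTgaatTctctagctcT
Over these 180 bases AGL72 differed from AGL71 at 22 positions, AGL42 at 44 and SOC1 at 57. Over whole coding sequences AGL71 and AGL72 shared 74.7% of aligned bases, and the closest pair was AGL14 and AGL19 with 80.7%. The 15 pairs within the clade ran from 59.7% to 80.7% with a median of 66.5%. Against AGL24, SVP, FUL and FLC, which belong to other branches of the family, the 24 pairs ran from 56.1% to 64.0%. The longest run of identical bases between annotated transcripts of AGL71 and AGL72 was 23 bases, and between any pair in the clade 29 bases (AGL42 and AGL14). A read longer than that holds at least 1 base that differs between the pair. The longest coding sequence of each of the 6 genes had 7 coding exons, and these sequences were 633 to 690 bases long.

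Levels are in FPKM, which scales fragments by transcript length and library size, so they can be compared between genes. Of the mutated genes, LSH4 had 3.79 to 7.25 FPKM in the mutant and 19.2 to 24.0 in wild type, and LSH1 had 2.198 to 4.26 in the mutant and 7.38 to 11.9 in wild type. LSH3 overlapped, with 10.2 to 15.6 FPKM in the mutant and 10.5 to 23.3 in wild type. The tissue label was set against 8 markers of meristems and young flowers. STM, the homeobox gene of the shoot meristem, averaged 66.7 ± 3.25 FPKM in the mutant and 87.0 ± 9.41 in wild type, and the floral gene AP1 averaged 60.6 ± 24.7 and 87.1 ± 26.2 (SD, n = 4 each). The stem cell genes WUS and CLV3 lay near 1 FPKM in both genotypes, and none of the 8 was at 0 in any library. Of 6 root markers, chosen because AGL14 and AGL42 are active in that organ, only 1 was among the genes analysed. This was the root stem cell niche gene WOX5, which reached at most 0.908 FPKM in the mutant and 0.711 in wild type. Read totals are unknown, so no counting interval is given for any level.

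The clade spanned a wide range of levels, and SOC1 and AGL42 made up almost all of it. In the mutant SOC1 held 61.6% ± 4.51 of the clade's summed FPKM and AGL42 33.8% ± 3.8. In wild type they held 56.2% ± 3.49 and 42.7% ± 3.14 (SD, n = 4 each). The order SOC1, AGL42, AGL71, AGL72 held in each of the 8 libraries, with no overlap between neighbours in the order within a genotype. AGL72 and AGL14 were apart in the mutant and overlapped in wild type, where AGL72 was above AGL14 in only 1 of 4 libraries.

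**Figure D1:**
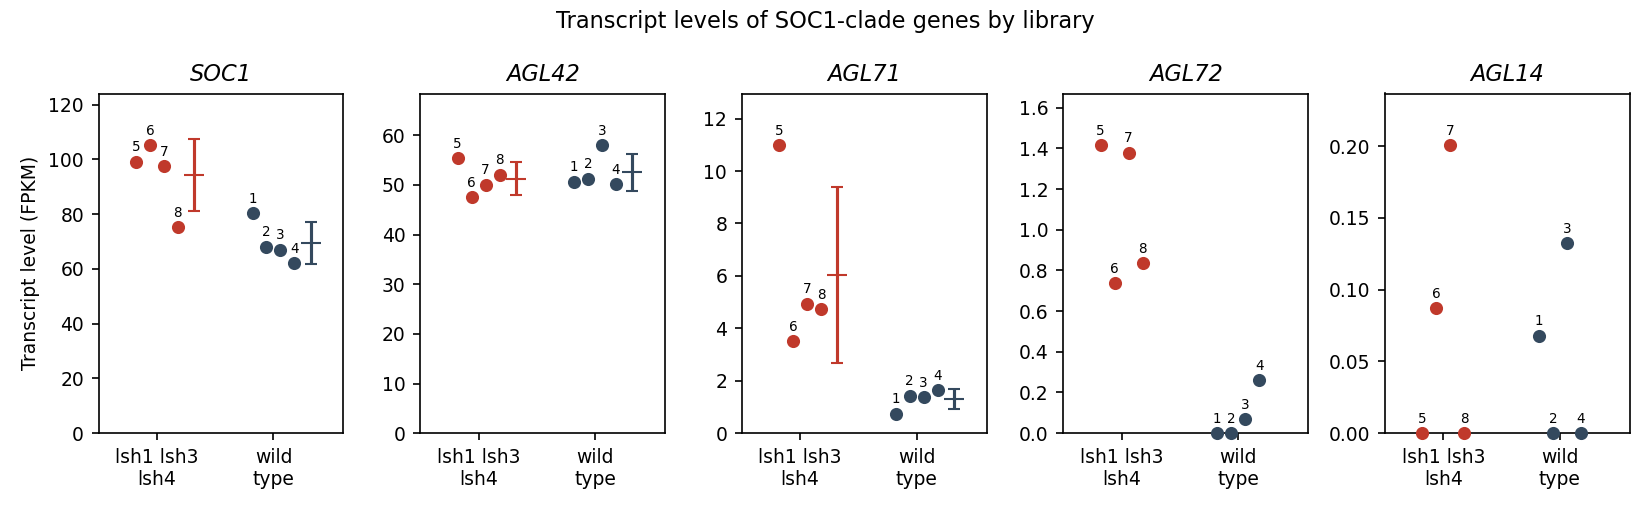
Transcript level in FPKM of 5 clade genes in each library, mutant (red) left of wild type (dark), each panel with its own scale from 0 and points numbered by replicate. Bars give mean and SD (n = 4) for SOC1, AGL42 and AGL71, and AGL72 and AGL14, with libraries listed at 0, have none. AGL71 and AGL72 do not overlap between genotypes, SOC1 overlaps through mutant replicate 8 (75.2 FPKM) and wild type replicate 1 (80.4 FPKM), and AGL42 and AGL14 overlap.

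SOC1, the floral integrator, was higher on average in the mutant without passing the test over all genes. It had 99.1, 105, 97.6 and 75.2 FPKM in mutant replicates 5 to 8, against 80.4, 68.1, 67.0 and 62.1 FPKM in wild type replicates 1 to 4. Mutant replicates 5 to 7 lay above all wild-type libraries, and mutant replicate 8 lay below wild type replicate 1. The means were 94.2 ± 13.1 FPKM in the mutant and 69.4 ± 7.78 in wild type (SD, n = 4 each). The log2 fold change of FPKM + 1 was 0.43 with a 95% interval from 0.16 to 0.70 (limma, Benjamini-Hochberg adjusted p = 0.196). The authors' deposited table lists SOC1 as higher in the mutant with a log2 fold change of 0.44 and an adjusted p of 0.0315. In these bulk samples, more cells that express a gene and more RNA in each of them cannot be told apart.

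AGL71 had the largest difference among the 3 members tested. It had 10.98, 3.51, 4.95 and 4.73 FPKM in mutant replicates 5 to 8, against 0.744, 1.43, 1.38 and 1.63 FPKM in wild type replicates 1 to 4. Every mutant library lay above every wild-type library, and mutant replicate 5 was far above the other mutants. The means were 6.04 ± 3.35 FPKM in the mutant and 1.295 ± 0.383 in wild type (SD, n = 4 each), a ratio of 4.67. The log2 fold change was 1.53 with a 95% interval from 0.87 to 2.19 (limma adjusted p = 0.0974), and it was 1.24 without mutant replicate 5 (adjusted p = 0.153). The authors' deposited table lists AGL71 as higher with a log2 fold change of 2.22 and an adjusted p of 6.65e-05.

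AGL72, the neighbour of AGL71 and its closest relative among the members with values, was near 0 in wild type. It had 1.42, 0.739, 1.38 and 0.837 FPKM in mutant replicates 5 to 8, was listed at 0 in wild type replicates 1 and 2, and had 0.0686 and 0.260 FPKM in wild type replicates 3 and 4. The genotypes did not overlap. Its mean over the 8 libraries was under the minimum of 1 FPKM, so it was not in the main test. With no minimum its log2 fold change of FPKM + 1 was 0.94 (limma adjusted p = 0.0582), in a fit that called 0.0539% of 22281 genes. The authors' deposited table lists AGL72 as higher with a log2 fold change of 3.68 and an adjusted p of 0.00936. Over the 8 libraries log2 levels of AGL71 and AGL72 had a Pearson r of 0.944, and 0.711 after each genotype's mean was taken out, in both cases as a description of points that share libraries and depth.

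AGL42 was at nearly the same level in both genotypes. It had 55.4, 47.6, 50.04 and 52.0 FPKM in mutant replicates 5 to 8, against 50.7, 51.3, 58.0 and 50.2 FPKM in wild type replicates 1 to 4. The genotypes overlapped throughout, with means of 51.3 ± 3.32 FPKM in the mutant and 52.5 ± 3.67 in wild type (SD, n = 4 each). The log2 fold change was -0.03 with a 95% interval from -0.20 to 0.13 (limma adjusted p = 0.878). AGL14 was listed at 0 in mutant replicates 5 and 8 and had 0.0871 and 0.201 FPKM in mutant replicates 6 and 7. It was listed at 0 in wild type replicates 2 and 4 and had 0.0680 and 0.132 FPKM in wild type replicates 1 and 3. No difference in AGL14 was detectable at such levels, and neither AGL42 nor AGL14 is in the authors' deposited table.

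None of the 3 members past the minimum of 1 FPKM was called by limma at an adjusted p under 0.05, where 0.186% of the 17706 genes tested were called (0.136% with a higher and 0.0508% with a lower level in the mutant). Before adjustment AGL71 and SOC1 were the 2 members with a p under 0.05, both higher in the mutant, where 6.91% of all genes tested were higher and 5.62% lower at that level. Among the 3 tested members 1 had all mutant libraries above wild type, as had 4.15% of all genes tested, while 3.74% had them all below and 7.89% did not overlap in either direction. Over the 22281 genes with no minimum that share was 3.93%, and there AGL71 and AGL72 met it. The authors' deposited table lists 3 of the 6 members, all higher in the mutant, where about 4.09% of the genes behind it are listed, 2.41% as higher and 1.68% as lower. With each library weighted by the spread of its own values around the fit, limma called 2 members, SOC1 (adjusted p = 0.00755) and AGL71 (adjusted p = 0.00832). That fit called 13.1% of all genes, 7.14% as higher, and used no outside measure of library quality.

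**Figure D2:**
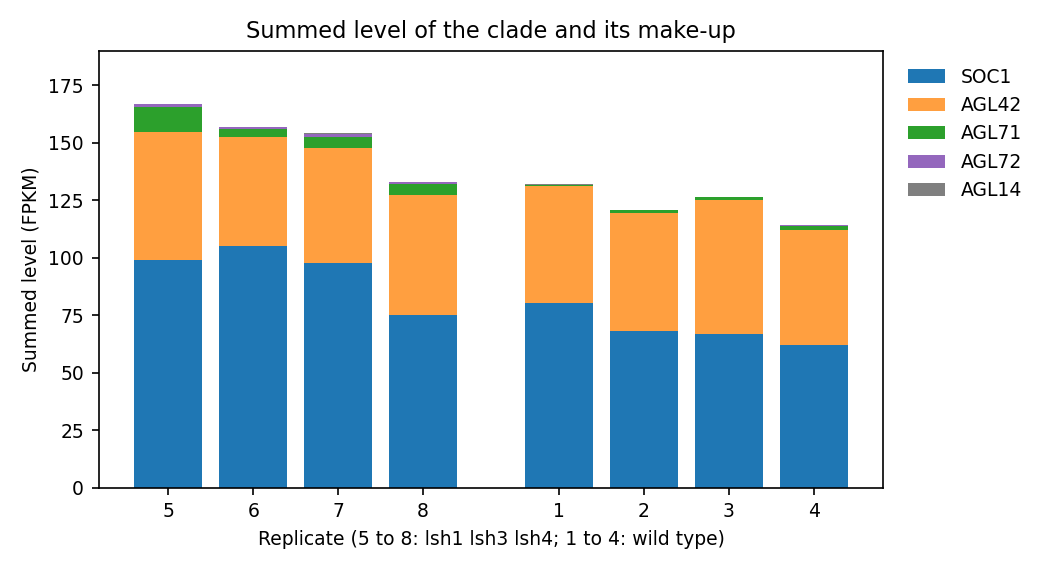
Summed FPKM of 5 clade genes in each library as stacked bars from 0, mutant replicates 5 to 8 left of wild type replicates 1 to 4. The sum is 133 to 167 FPKM in the mutant and 114 to 132 FPKM in wild type, and the AGL71 band is wider in the mutant.

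The summed level of the clade was 167, 157, 154 and 133 FPKM in mutant replicates 5 to 8, against 132, 121, 127 and 114 FPKM in wild type replicates 1 to 4. The lowest mutant sum, 132.8 FPKM, lay just above the highest wild-type sum, 131.9 FPKM. AGL71 held 3.90% ± 1.87 of the sum in the mutant and 1.07% ± 0.364 in wild type (SD, n = 4 each). AGL72 held 0.470% to 0.894% of the sum in the mutant and at most 0.227% in wild type. The largest share of AGL71 in any library was 6.58%, in mutant replicate 5.

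SOC1 was set against its partner AGL24 within each library, because a ratio inside a library does not depend on how libraries are scaled. AGL24 had 24.2, 34.9, 40.6 and 28.45 FPKM in mutant replicates 5 to 8, against 70.4, 68.4, 61.9 and 55.0 FPKM in wild type replicates 1 to 4. The log2 ratio of SOC1 to AGL24 was 1.54 ± 0.33 in the mutant and 0.12 ± 0.09 in wild type (SD, n = 4 each). SOC1 and AGL24 were thus at about equal levels in wild type, and SOC1 was the higher of the pair in each mutant library. The difference of 1.42 had a 2-sided exact permutation p of 0.0286, the smallest that 4 against 4 libraries allow, and 0.0429 after adjustment over 3 ratios. The log2 fold change was -0.99 for AGL24 and 0.43 for SOC1, so AGL24 contributed more to this difference than SOC1.

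The ratio of SOC1 to its repressor SVP moved the same way. SVP had 36.9, 37.7, 39.7 and 26.2 FPKM in mutant replicates 5 to 8, against 59.5, 54.5, 43.8 and 49.98 FPKM in wild type replicates 1 to 4. The log2 ratio of SOC1 to SVP was 1.41 ± 0.09 in the mutant and 0.41 ± 0.14 in wild type, a difference of 0.99 (n = 4 each, exact permutation p = 0.0286, adjusted 0.0429). The log2 fold change was -0.56 for SVP and 0.43 for SOC1, so SVP contributed more to this difference than SOC1. The 4 mutant ratios lay close together although SOC1 and SVP were both lowest in mutant replicate 8. The log2 ratio of SOC1 to AGL42 was 0.86 ± 0.25 in the mutant and 0.39 ± 0.19 in wild type, with overlap between genotypes (difference 0.47, n = 4 each, exact permutation p = 0.0571, adjusted 0.0571). These 3 ratios were chosen with the levels of SOC1, AGL24 and SVP in these libraries known. AGL24 and SVP alone already had all mutant libraries below wild type, as had 3.74% of all genes tested. Small p-values for their ratios were therefore likely from the start. The tests are no independent evidence of the direction, size or separation of the ratios.

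**Figure D3:**
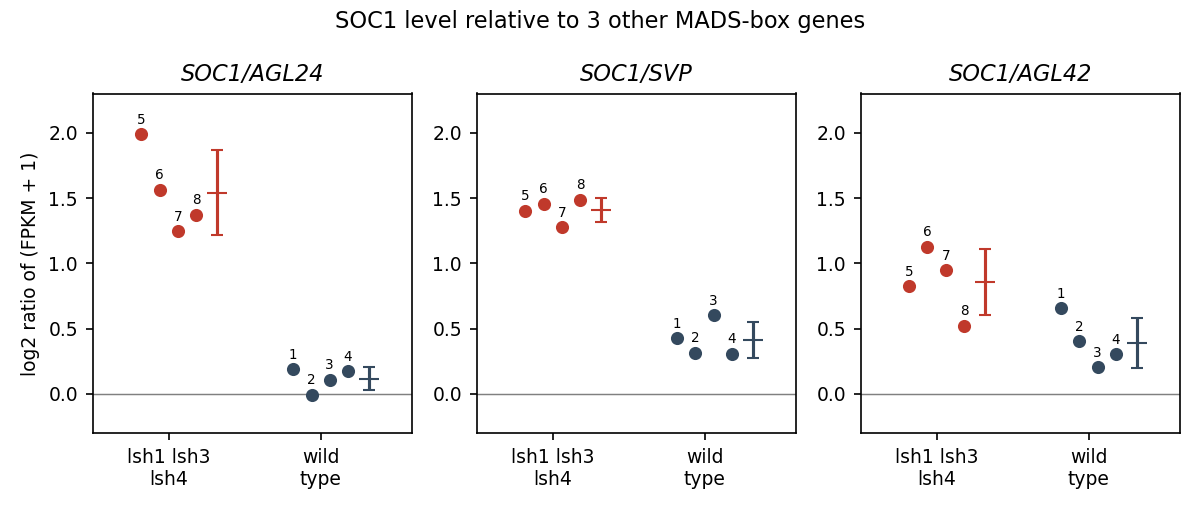
Log2 ratio of FPKM + 1 between SOC1 and AGL24, SVP or AGL42 in each library, mutant (red) left of wild type (dark), with points numbered by replicate and bars for mean and SD (n = 4). Mutant and wild-type libraries are apart for AGL24 and SVP, and overlap for AGL42.

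Genes known to act on SOC1 went both ways. Of 14 activators of SOC1 or of flowering upstream of it, 12 were tested and none was called by limma. At an unadjusted p under 0.05, 1 was higher (as were 6.91% of all genes tested) and 2 were lower (5.62%). Their median log2 fold change was -0.10, beside -0.01 over all genes tested. The sign of this median was not stable: it was 0.119 with the green tissue covariate and 0.0219 without mutant replicate 6, and without another single library it ran from -0.164 (wild type replicate 3) to -0.0306 (wild type replicate 4). AGL24 had the smallest p (log2 fold change -0.99, limma adjusted p = 0.0603), and the authors' deposited table lists it as lower (-0.99, adjusted p = 3.43e-06). AGL12, also named XAL1, a MADS-box gene of roots that also promotes flowering, had 1.32 to 2.55 FPKM in the mutant and 0.148 to 0.631 in wild type (0.93, limma adjusted p = 0.113). The authors' deposited table lists AGL12 as higher (1.93, adjusted p = 0.00207). SPL15, an age-pathway factor that acts with SOC1, is listed there as lower (-0.51, adjusted p = 0.0385). The florigen gene FT, made in leaves, averaged under 1 FPKM in both genotypes, and FUL, a partner of SOC1, overlapped (102 ± 10.5 FPKM in the mutant and 95.7 ± 11.6 in wild type, SD, n = 4 each).

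Of 21 repressors of SOC1 or of flowering, 17 were tested and none was called by limma. At an unadjusted p under 0.05, 1 was higher (as were 6.91% of all genes tested) and 1 was lower (5.62%). Their median log2 fold change was 0.16. It turned to -0.0838 with the touch and wounding covariate, -0.0338 with library weights and -0.00817 without wild type replicate 1, and it was 0.0305 without mutant replicate 8 and 0.304 with the green tissue covariate. FLC, the vernalization-responsive repressor, had 2.69, 1.71, 2.93 and 2.67 FPKM in mutant replicates 5 to 8, against 0.221, 1.65, 0 and 0.226 FPKM in wild type replicates 1 to 4. The genotypes were apart, but mutant replicate 6 and wild type replicate 2 nearly met. Its log2 fold change was 1.295 (limma adjusted p = 0.152), and FLC is not in the authors' deposited table. SVP had a log2 fold change of -0.56 (limma adjusted p = 0.176), and the authors' deposited table lists it as lower (-0.56, adjusted p = 0.0163). FLC and SVP, which act together on SOC1, thus lay on opposite sides of zero. The FLC relatives FLM (0.14), MAF2 (0.16), MAF3 (0.198) and MAF4 (0.34) had small positive log2 fold changes with overlapping libraries.

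Of 15 genes known as direct targets of SOC1, 11 were tested and none was called by limma. At an unadjusted p under 0.05, 1 was higher (as were 6.91% of all genes tested) and 3 were lower (5.62%). Their median log2 fold change was -0.19. It turned to 0.133 with the green tissue covariate and 0.0179 without mutant replicate 6, and it was -0.445 with the touch and wounding covariate. Leaving out wild type replicate 4 gave -0.0259, and leaving out replicate 1 of that genotype gave -0.296. AGL24, described above among the activators, is in this list too. The meristem identity gene LFY averaged 21.1 ± 9.94 FPKM in the mutant and 21.6 ± 4.73 in wild type (SD, n = 4 each; log2 fold change -0.14, limma adjusted p = 0.889). CBF2, a cold-response factor that SOC1 represses, had 0.482, 0.192, 0.174 and 0.236 FPKM in mutant replicates 5 to 8, against 8.56, 3.98, 4.40 and 0.802 FPKM in wild type replicates 1 to 4 (-1.87, limma adjusted p = 0.152). The authors' deposited table lists CBF2 as lower (-4.04, adjusted p = 1.12e-06). CBF2 is also 1 of the 12 touch and wounding genes, 10 of which were tested. The mean log2(FPKM + 1) of those 10 was 2.85, 2.58, 2.55 and 2.27 in mutant replicates 5 to 8. In wild type replicates 1 to 4 it was 6.22, 4.55, 3.93 and 2.68. With that mean as a covariate the log2 fold change of CBF2 was -0.743 (limma adjusted p = 0.398). Because CBF2 is itself part of that mean, some of this shift is built in. GNC, a GATA factor that SOC1 also represses, is listed in the authors' deposited table as higher (0.87, adjusted p = 0.0288). GNC and CBF2 thus lay on opposite sides of zero. The targets CBF1, CBF3 and GNL were under the minimum of 1 FPKM and not tested. Their differences in mean log2 level were -0.74 for CBF1 and -0.62 for CBF3, both with overlapping libraries. GNL had 0.35, with all mutant libraries above wild type.

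Gibberellin promotes SOC1 expression, and AGL42, AGL71 and AGL72 act in flowering through a gibberellin-dependent route. Of 16 gibberellin genes 12 were tested, 10 with positive and 2 with negative log2 fold changes and a median of 0.21, and none was called by limma. The median was -0.00143 with the touch and wounding covariate, 0.0975 with no minimum, and 0.0988, 0.118 and 0.131 without mutant replicate 8, mutant replicate 5 and wild type replicate 1. At an unadjusted p under 0.05, 3 were higher (as were 6.91% of all genes tested) and none was lower (5.62%). The 2 with the smallest p encode DELLA repressors of gibberellin responses. RGA averaged 72.2 ± 3.36 FPKM in the mutant and 62.1 ± 4.52 in wild type (log2 fold change 0.22, limma adjusted p = 0.266), with all mutant libraries above wild type. RGL1 averaged 23.6 ± 3.38 FPKM in the mutant and 18.8 ± 1.38 in wild type (SD, n = 4 each; 0.30, limma adjusted p = 0.320). The authors' deposited table lists none of these 16 genes as higher and 1 as lower, GA2OX4, a gibberellin-inactivating enzyme (-1.83, adjusted p = 0.0332).

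Of 10 genes of floral organ abscission linked to AGL42, 7 were tested and none was called by limma. At an unadjusted p under 0.05, 2 were higher (as were 6.91% of all genes tested) and 1 was lower (5.62%). Their median log2 fold change was -0.499. It turned to 0.411 with the touch and wounding covariate, and it was -0.266 with the green tissue covariate and -0.178 with no minimum. Leaving out wild type replicate 1 gave -0.194, and leaving out replicate 2 of that genotype gave -0.267. BOP1, a boundary gene needed for abscission, had 3.21, 1.87, 2.59 and 4.38 FPKM in mutant replicates 5 to 8, against 0.561, 0.714, 0.267 and 0.929 FPKM in wild type replicates 1 to 4. Its paralogue BOP2 had 15.1, 7.49, 9.10 and 17.8 FPKM in mutant replicates 5 to 8, against 3.26, 5.70, 4.45 and 7.08 FPKM in wild type replicates 1 to 4. Both were higher in each mutant library than in any wild-type library (limma adjusted p = 0.0853 for BOP1 and 0.185 for BOP2), and the authors' deposited table lists both as higher. The abscission peptide gene IDA was listed at 0 in the 4 mutant libraries and was under 0.1 FPKM in wild type, and the receptor gene HAE averaged 7.26 ± 0.955 FPKM in the mutant and 12.5 ± 8.00 in wild type (SD, n = 4 each).

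**Figure D4:**
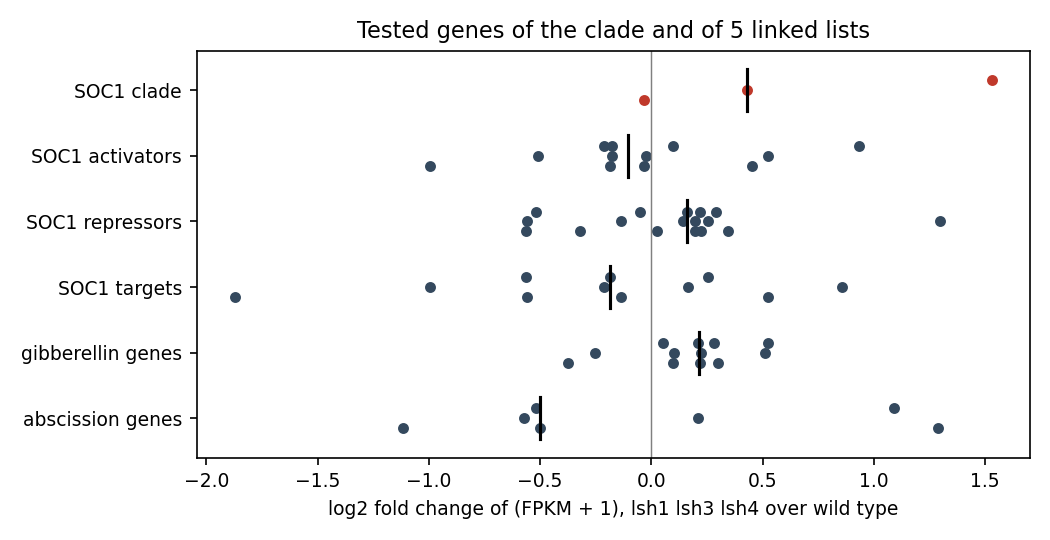
Log2 fold change of FPKM + 1, mutant over wild type, of each tested gene in the clade (red) and in 5 linked gene lists (dark), with a black line at each median. Vertical offsets within a row only separate points. The 5 lists hold genes on both sides of zero. The abscission median of -0.499 turns to 0.411 with the touch and wounding covariate, and the medians of the other 4 lists also change sign under at least 1 setting.

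**Figure D5:**
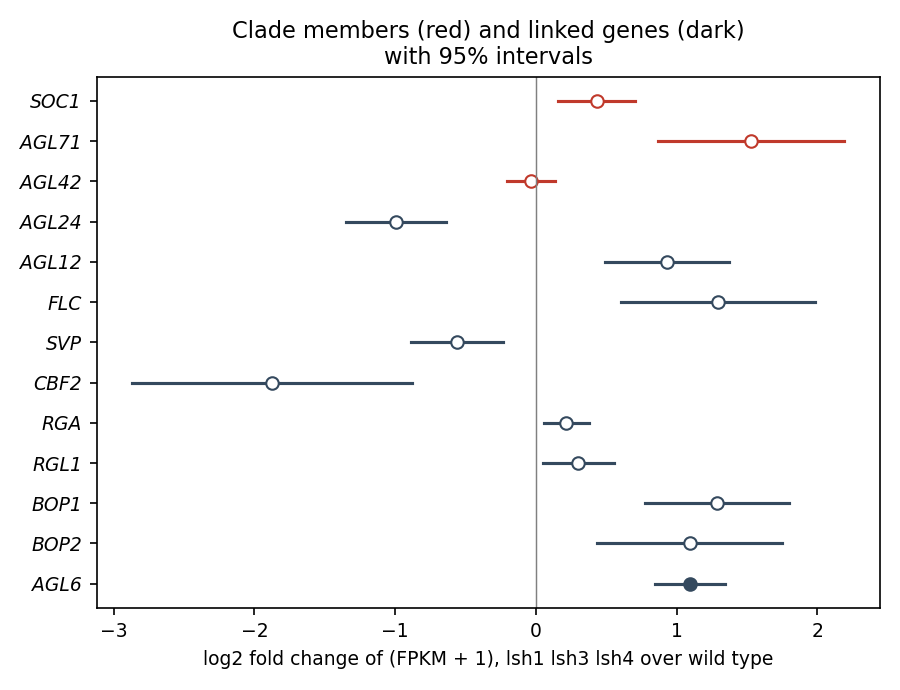
Log2 fold change of FPKM + 1, mutant over wild type, with 95% intervals from limma (n = 4 each), for clade members (red) and for linked genes (dark). A filled point marks an adjusted p under 0.05, reached by AGL6 only among these 13 genes, and the interval of AGL42 spans zero.

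Genes beside the members on the chromosome were compared as well. AGL6, a MADS-box gene with roles in floral organs, is the next annotated gene to SOC1, on the opposite strand and 918 bases away with the 3′ ends facing each other. AGL6 rose in the mutant, with 24.8, 22.0, 23.5 and 27.8 FPKM in mutant replicates 5 to 8, against 9.52, 10.4, 13.2 and 10.8 FPKM in wild type replicates 1 to 4 (log2 fold change 1.096, limma adjusted p = 0.0179). Its log2 fold change was 0.97 to 1.1795 with either covariate or without any 1 library. The call was lost with the green tissue covariate (limma adjusted p = 0.428), with the touch and wounding covariate (0.114), and on leaving out replicate 2 (0.0911) or 4 (0.0725) of wild type, or mutant replicate 5 (0.119) or mutant replicate 7 (0.0740). The SOC1 value of 0.43 was smaller, and the genes farther out were near zero, with SAP18 beyond AGL6 at -0.07 and AT2G45670 on the other side of SOC1 at 0.16. AT2G45670 had all mutant libraries above wild type without being called (limma adjusted p = 0.371).

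AGL71 and AGL72 lie 1034 bases apart on the same strand. The genes flanking this pair showed smaller values: TRM24, beside AGL72, had a log2 fold change of 0.33 (limma adjusted p = 0.396), and AT5G51880, beside AGL71, had 0.06 (0.816). AT5G51890, the second gene beyond AGL71, had 0.597 (0.309). Of the 20 annotated neighbours of the 6 genes that are not members themselves, 13 were tested. AGL6 alone was called, where 0.186% of all genes tested were called. Libraries did not overlap for 2 of the 13, AGL6 and AT2G45670, as for 7.89% of all genes tested. The 7 tested neighbours of AGL42, AGL14 and AGL19 had log2 fold changes from -0.38 to 0.33, all with overlapping libraries, as most genes tested had.

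Among 6798 genes with a symbol and a mean of 5 FPKM or more, those most like SOC1 over the 8 libraries by Pearson r of log2 levels were the amino acid permease genes AAP6 (r = 0.956) and AAP4 (0.954), then NUDX26 (0.953), which encodes a nudix hydrolase. After each genotype's mean was taken out, r over all 8 libraries together was 0.920 for AAP6, 0.893 for AAP4 and 0.861 for NUDX26. These genes were picked by r over the same libraries, so high values here follow in part from the choice. AAP6 averaged 77.1 ± 26.0 FPKM in the mutant and 42.3 ± 13.4 in wild type (SD, n = 4 each). The genes most like AGL71 were BCA6 (r = 0.986), SEH (0.978) and GLR3.3 (0.965). They encode a carbonic anhydrase, a soluble epoxide hydrolase and a glutamate receptor-like channel. All 3 had the mutant libraries above wild type, as had 4.15% of all genes tested. That follows largely from the choice, because AGL71 itself had this pattern. For AGL42 the leading values were lower, with NUDX15 at 0.869, SPX2 at 0.851 and ZML1 at 0.843. These are descriptions over 8 libraries, picked as the highest of many, and the points share libraries and scaling.

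Markers of other material moved with genotype beside these values. All 12 green tissue genes had positive log2 fold changes (median 0.45, none called by limma). Of these, 8 were higher at an unadjusted p under 0.05, as were 6.91% of all genes tested. The summed level of the green tissue genes was 14648 to 18554 FPKM in the mutant and 9972 to 16454 in wild type. None of them was at 0 in any library. All 10 tested touch and wounding genes, of 12, had negative values (median -1.73, none called). Of these, 7 were lower at an unadjusted p under 0.05 (5.62% over all genes). Their summed level was 86.9 to 201 FPKM in the mutant and 129 to 1485 in wild type, and 1 of the 12 was at 0 in some library. With the mean of the green tissue genes as a covariate the log2 fold change was 0.41 for SOC1 (limma adjusted p = 0.919) and 1.84 for AGL71 (0.602). With the mean of the tested touch and wounding genes it was 0.64 for SOC1 (0.205) and 1.32 for AGL71 (0.324), and both fits called 0 genes over all. SOC1 and AGL71 had positive values in both fits. Both covariates differed on average between genotypes, so their part cannot be told apart from that of genotype here. All 6 stem and vascular genes also had positive values (median 0.35), and the 6 tested meristem and young flower genes had negative ones (median -0.20, with STM listed as lower in the authors' deposited table). The mean log2(FPKM + 1) of the 6 meristem and young flower genes was 5.26, 4.198, 4.65 and 5.715 in mutant replicates 5 to 8. In wild type replicates 1 to 4 it was 4.71, 5.28, 5.07 and 5.84. SOC1 was highest within its genotype where this mean was lowest, in mutant replicate 6 and wild type replicate 1. SOC1 was lowest where the mean was highest, in mutant replicate 8 and wild type replicate 4. Between the remaining libraries of each genotype both went the same way. The 2 tested late anther genes, of 6, had a median of 0.05. The part of these 3 marker groups in the results was not tested.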

How the data were processed

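RNA was measured in 8 libraries. Groups and replicate numbers came from the sample titles. Gene levels are the authors' deposited FPKM, 1 per gene in each library. Per the submitters' processing notes RSEM, DESeq2 and build TAIR10 were used, with no versions; no aligner, annotation or filter is named in the labels. The deposited FPKM had the same median-of-ratios size factor, 1.0017, in all 8 libraries, so they were already scaled that way. The authors' deposited table lists 822 genes, each with a log2 fold change, its p-value and that p-value after adjustment, per the file headers, and the ratio of its leading adjusted to raw p-value corresponds to about 20096 tested genes. No read counts were used, so depth is unknown.

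The tests used limma 3.58.1 (R 4.3.3) on log2(FPKM + 1) with trend moderation, 2-sided, for the 17706 genes whose mean FPKM reached 1, with Benjamini-Hochberg adjustment and a threshold of 0.05. This scale understates the change of low genes. Ratios were tested by exact permutation (scipy 1.17.1). Sequences, gene order and identities (Biopython 1.88) come from RefSeq TAIR10.1, matched by AGI code; since the authors name TAIR10, no coordinates are printed. The members and gene lists were chosen with earlier results of these data known. Named were the members, in each list the called genes or else the 2 with the smallest p, 2 neighbours each side and the 3 genes most like each tested member; SPL15, GNC, GA2OX4, FT, FUL, LFY, HAE, IDA and the FLC relatives were added after their values were seen. On simulated data (17706 genes, 200 changed, 5 runs) the mutant against wild type fit recovered 73.9% of log2 changes of 1 and 92.0% of 2. The simulated noise was independent between genes and alike in all libraries, with no effect shared within a library. These shares are therefore no measure of power in the real libraries. Alternatives were pseudocounts of 0.1 and 0.5, no minimum, a minimum of 5, library weights, quantile scaling, median-of-ratios scaling, TPM, 2 covariates, robust moderation and leaving out each library. Plots used matplotlib 3.10.9 in Python 3.11.15.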

Additional observations from a re-analysis of the deposited data

Results flagged for a closer look

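In 3 of 46 groups of 4 libraries checked, 1 library stood apart from the other 3 by more than Dixon's 95% critical value, and chance flags about 1 in 20. The AGL42 level was 58.0 FPKM in wild type replicate 3, the highest, against 50.2 to 51.3 in the other wild-type libraries. The FLC level was 1.65 FPKM in wild type replicate 2, the highest, against 0 to 0.226 in the others. The RGL1 level was 16.8 FPKM in the lowest wild-type library.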

How the results depend on the processing

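No paired analysis was possible because the genotypes share no replicate number. SOC1 and AGL71 kept a positive difference in the fits run, and neither passed the threshold except with library weights (SOC1 0.51, AGL71 1.38). AGL71 was not tested at a minimum of 5 FPKM. The AGL72 difference was 0.94 at a pseudocount of 1, 1.45 at 0.5 and 2.88 at 0.1, and AGL14 was 0.18 with library weights. Leaving out 1 library gave 0.38 to 0.53 for SOC1, 1.24 to 1.71 for AGL71 and -0.0717 to 0.0134 for AGL42, which changed sign without wild type replicate 3 (0.0134) or mutant replicate 6 (0.00037). LSH3, at -0.30, was 0.0021 with the green tissue covariate, -0.81 with the touch and wounding covariate and -0.50 without wild type replicate 1. Without 1 library NUDX15 was -0.0932 to 0.0248 and ZML1 -0.0425 to 0.0452, and ZML1 was 0.0172 after TPM and 0.0055 after quantile scaling, against a value near zero. AGL14, near 0 FPKM, was -0.05 with the green tissue covariate and -0.03 without mutant replicate 7.

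Over all genes 24 were higher and 9 lower; the counts were 7 and 5 with no minimum, 14 and 5 after TPM, 0 and 0 with either covariate, 1265 and 1058 with library weights, and 0 to 79 and 0 to 25 when 1 library was left out (0 and 0 with wild type replicate 2 removed, 79 and 25 with replicate 3 removed). With library weights limma called 2 clade members, 4 activators, 2 repressors, 5 targets, 1 gibberellin gene and 5 abscission genes. Without 1 library the difference in log2 ratio was 1.28 to 1.52 for SOC1 to AGL24 and 0.96 to 1.05 for SOC1 to SVP; 3 against 4 libraries cannot reach the threshold. The cause of these shifts was not tested. Read depth is unknown, so no counting error can be given for genes near 0 FPKM.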
